A study of Mus musculus with 6 samples.

Results

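The genes described here encode the machinery that brings new proteins into the endoplasmic reticulum and carries them on to the Golgi. Of 49 listed genes, 48 stood in the deposited table of 38124 genes under the listed name. They comprise 6 genes of the Sec61 channel and its partners, 5 of signal peptidase and 4 of the translocon-associated protein (TRAP) complex. A further 7 belong to the signal recognition particle and its receptor, 12 to the COPII coat and its cycle, 3 to the Sec22 family, 6 to the COPI coat and 5 to cargo receptors. The genes were chosen by name for these roles, but with the exposed and untreated RPKM of this same table already known, so the contrast between the groups is given for them as a description and supports nothing. The remaining listed gene, Copg1 (gamma-COP), stood in the table under its older symbol Copg and is given apart.

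The cells were macrophages grown in culture from bone marrow precursors of C57BL mice, wild type in both groups. In the 3 exposed libraries the cells had received thymocytes made apoptotic with dexamethasone, a glucocorticoid, mixed at 1:40, and the apoptotic cells were taken away after 24 hr. The 3 untreated libraries came from the same kind of cells without apoptotic cells. The series' design text calls each sample a biological replicate, without saying whether the cultures came from different mice, so p-values measure the spread between these samples.

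Background helps to read the values. The signal recognition particle binds the signal sequence of a nascent protein and docks the ribosome, through its receptor, on the Sec61 channel, where signal peptidase removes the sequence and TRAP assists. COPII coats then bud vesicles from the endoplasmic reticulum, COPI coats return material from the Golgi, and membrane-bound cargo receptors load both. In secretory cells and under the unfolded protein response, the signalling that follows misfolded protein in the endoplasmic reticulum, many of these genes are known to be induced together.

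All 9 macrophage marker genes reached 1 RPKM in at least 1 library, and they summed to 20130 to 22472 RPKM in exposed and 15621 to 16354 RPKM in untreated libraries, most of it Lyz2. In 3 of the 9 (Lyz2, Mertk and Cd163) the exposed libraries lay above all untreated ones. In 6 (Csf1r, Itgam, Cd14, Fcgr1, Adgre1 and Cd68) they lay below them. Mean RPKM of Cd163 was 3.70 in exposed and 0.131 in untreated libraries, and that of Fcgr1 was 7.43 and 52.7. The ratio of exposed to untreated means was 0.914 for Adgre1 and 0.898 for Cd68. RPKM corrects a read count for gene length and sequencing depth. Thymocyte and T cell markers were near absent. Their 14 genes summed to 2.12 to 2.53 RPKM in exposed and 4.33 to 4.65 RPKM in untreated libraries, nearly all of it Cd4, and Cd3e, Cd8b1, Rag2, Ptcra and Themis were at 0 in all 6. Neutrophil markers summed to 3.44 to 3.87 RPKM in exposed and 0.128 to 0.370 RPKM in untreated libraries, with 3 of the 5 higher in every exposed library and Ly6g at 0, and erythroid markers to 0.923 to 1.48 RPKM in exposed and at most 0.0515 RPKM in untreated libraries. Plasma cell markers summed to 6.13 to 6.77 RPKM in exposed and 17.7 to 18.3 RPKM in untreated libraries, nearly all of it Sdc1, and fibroblast markers to 1.38 to 1.72 RPKM in exposed and 2.20 to 2.47 RPKM in untreated libraries. B cell and dendritic cell markers stayed under 1 RPKM in all libraries. The part of these markers in the results was not tested. Recovered depth was 19315132 to 25933208 mapped reads per library, and members had 182 to 11024 reads in a library.

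Most of these genes were higher in macrophages exposed to apoptotic thymocytes. All 48 passed the filter for expression (3 libraries reaching 1 RPKM) and were tested, and 38 rose, 3 fell and 7 did not pass (limma on log2(RPKM + 1), adjusted p under 0.05). Over all 10173 tested genes 18.8% were called higher and 46.0% lower. The exposed libraries lay above all untreated ones in 40 of the 48 and below them in 4, against 20.4% above and 49.1% below over all tested genes. The median log2 change of the members was 0.26, against -0.13 over all tested genes, and 45 of the 48 lay above that value. The rises were modest in size. A ratio of means of 1.5 or more was reached by 9 members, none reached 2, and 6.46% of all tested genes reached 1.5. Summed over the 48 genes, RPKM was 1737, 1818 and 1817 in the exposed libraries, against 1371, 1431 and 1387 in the untreated libraries.

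The split depends on how libraries are scaled. When libraries were rescaled by median-of-ratios factors, 41 members were called higher and 0 lower, beside 31.9% and 27.9% of all tested genes. With each library brought to the same RPKM sum, 30 were higher and 6 lower, beside 13.5% and 59.8% of all tested genes. The 20 most abundant genes held 33.8% to 34.6% of summed RPKM in exposed and 26.9% to 27.0% in untreated libraries. RPKM gives a gene's share of a library, so in these bulk samples fewer cells of a kind and less RNA per cell cannot be told apart.

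**Figure D1:**
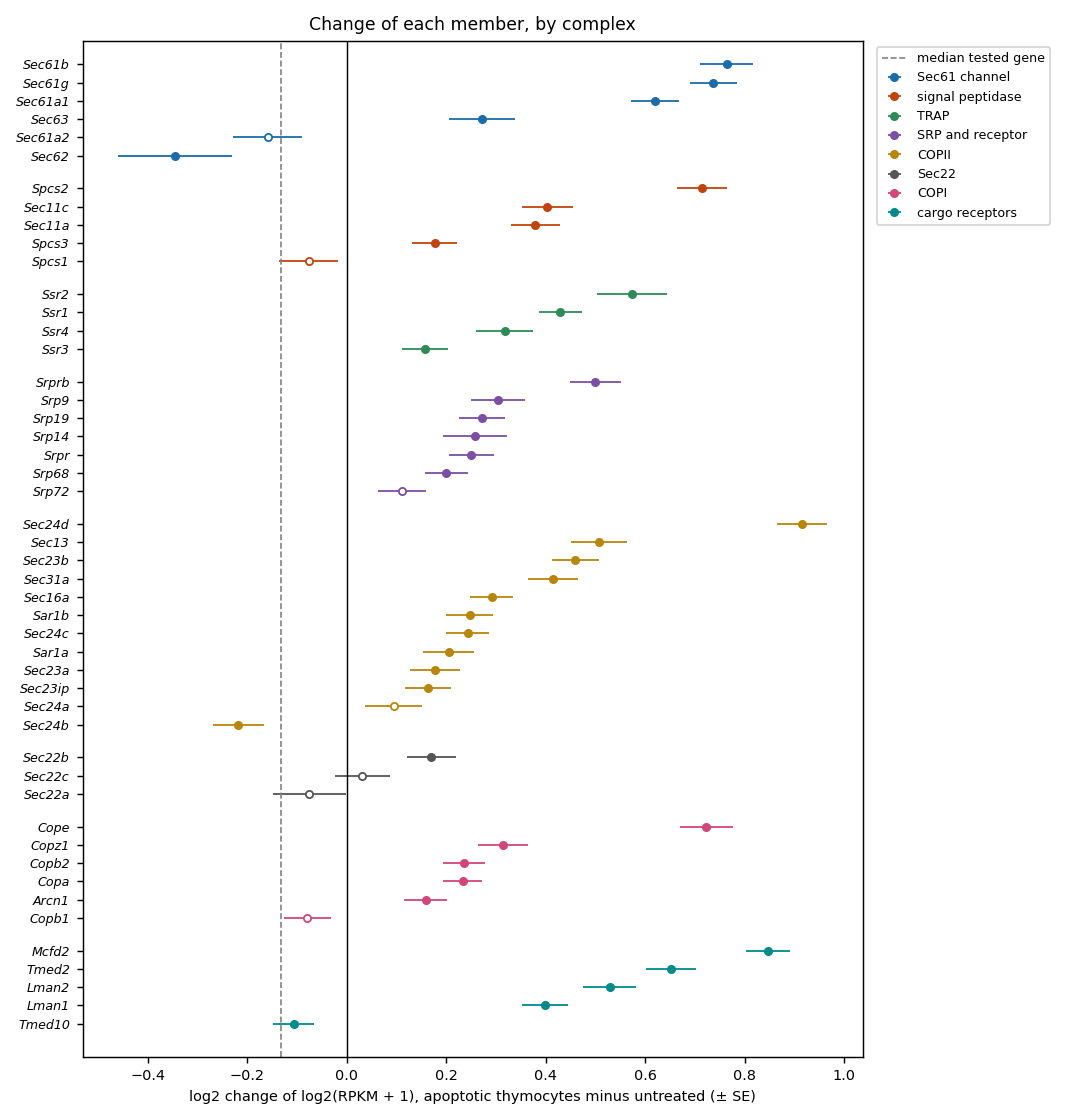
Log2 change on the log2(RPKM + 1) scale, exposed minus untreated, with its standard error, for each of the 48 members by complex (horizontal axis). Filled points passed the test, open points did not, and the dashed line is the median of all tested genes at -0.13. Most points lie to the right of 0, and Sec62, Sec24b and Tmed10 are the filled points to its left.

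A short promoter element was present in several members. Of the 48 genes, 39 matched the RefSeq promoter table (GRCm38.p6, from 250 bases before to 50 bases after a start). The string ACGTGGC, the core of the Golgi apparatus stress response element, stood on one strand or the other in 13 of the 39 (33.3%). It was present in 2.58% of the 32851 promoters of the table and in 4.81% of the 7420 tested genes that matched it. The related lists described further on were searched in their genes with a promoter. The string stood in 6 of 24 SNARE, tether and Arf cycle genes, 3 of 24 chaperone genes and 0 of 10 oligosaccharyltransferase genes. It also stood in 6 of 28 genes of the list of other p24, cargo and COP genes, which includes Srp54 and Tram genes. The windows that lie wholly before the RefSeq start are shown, because they carry this shared element in genes from targeting to vesicle budding. The Srprb window lies before that start but inside the gene span of the deposited table, which starts farther upstream. Each is 30 bases, 5′ to 3′ on the strand of the gene, with the element or its reverse complement in capitals.
Sec24d (chr3:123267461-123267490, plus strand): ccgggcgcctgACGTGGCactagcaaccca
Mcfd2 (chr17:87266120-87266149, minus strand): acccacggtgaGCCACGTtccggagcctca
Srprb (chr9:103202084-103202113, minus strand): tggagcctagaGCCACGTaactttggcggc
Ssr1, first copy (chr13:37994264-37994293, minus strand): cgccaccgccgGCCACGTgatctcccggcc
Ssr1, other copy (chr13:37994217-37994246, minus strand): ggcgcttagagGCCACGTcgacggtggcgg
Sec63 (chr10:42761462-42761491, plus strand): ttgctgcgcgcGCCACGTctccctcagtga
Sec24c (chr14:20674235-20674264, plus strand): gcctaaggccgACGTGGCagaaggagtggc
Sar1a (chr10:61680116-61680145, plus strand): tgacagacgctGCCACGTcttaccccgctt
Ssr3 (chr3:65392726-65392755, minus strand): ggcattgaggcGCCACGTaccctgaaggat
Spcs1 (chr14:31001709-31001738, minus strand): gctctgcagcaGCCACGTagggccacaacc

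Members with and without the element had close median changes. Of the 13 genes that hold it 11 rose, with a median log2 change of 0.27, and of the 26 without it 18 rose, with a median of 0.25. Spcs1 and Sec22a hold it and did not pass. Sec13, Sec31a, Sec23a and Sec22a hold it at or after the RefSeq start and are not printed. Over all tested genes the median log2 change was -0.091 for the 357 with the element and -0.13 for those without.

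The other 12 strings that were searched gave unequal shares. TGACGTGG, the core bound by XBP1 and ATF6 in the unfolded protein response, overlaps the first one by 6 bases and stood in Sec24d, Sec23a, Copb1 and Copb2, 10.3% of the 39 against 0.676% of all promoters and 1.06% of tested genes. The full endoplasmic reticulum stress element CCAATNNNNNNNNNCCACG was in 0 of the 39 and 0.119% of all promoters. Without its last base it was in 0 of the 39 and 0.365% of all. ATTGGNCCACG was in 0 and 0.0365%, and GTCACGTGAC in 0 and 0.326%. GACGTGTC was in 2 members and 0.384% of promoters, TGACGTCA in 1 and 1.79%, and TCACGTGA in 2 and 0.974%. Of tested genes 0.687% held GACGTGTC, 2.57% TCACGTGA and 3.79% TGACGTCA, the last above the 2.56% of members. The antioxidant response element matched 17 members (43.6%), against 27.8% of promoters and 36.2% of tested genes. CCAAT matched 16 (41.0%), above the 37.4% of promoters and below the 43.1% of tested genes. CCACG matched 26 (66.7%), against 32.8% of promoters and 53.5% of tested genes, and ACGT 29 (74.4%), against 30.9% and 46.7%. These shares overlap, since several of the strings contain others. A match is a run of letters and not a site shown to be used, and no match says only that the letters are missing from this window.

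Targeting starts with the signal recognition particle, of whose 7 listed genes with the receptor 6 rose. The genes of its SRP54 subunit are not among the 7, and none of them was called higher. Srp54b was called lower (log2 change -0.33, adjusted p = 0.00122). Srp54a (-0.10, adjusted p = 0.444) and Srp54c (-0.068, adjusted p = 0.651) did not pass. Srp9 and Srp14 encode the Alu-domain pair that slows elongation. Srp9 was 52.3 ± 3.598 RPKM in exposed and 42.1 ± 1.09 RPKM in untreated libraries (mean ± SD, n = 3, as in all values of this form; log2 change 0.30). Srp14 was 80.8 ± 5.87 RPKM in exposed and 67.3 ± 3.86 RPKM in untreated libraries (log2 change 0.26), and both rose. Srp19, an assembly protein of the particle, was 8.18 ± 0.171 RPKM in exposed and 6.60 ± 0.130 RPKM in untreated libraries, and Srp68, a core protein, was 23.6 ± 0.883 RPKM in exposed and 20.4 ± 0.0616 RPKM in untreated libraries. Srp72, the partner of Srp68, had 19.5, 18.4 and 17.7 RPKM in the exposed libraries, against 16.8, 17.2 and 17.3 RPKM in the untreated libraries. Its groups did not overlap, but the change of 0.11 did not pass (adjusted p = 0.0685). It was called higher with median-of-ratios scaling (adjusted p = 0.000818) and without exposed replicate 3 (0.0168).

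The receptor for the particle has 2 chains, and the beta chain showed the larger change. Srprb, the membrane-anchored beta chain (chr9:103188033-103202137, on mm10 as are all gene positions), had 14.5, 15.1 and 16.2 RPKM in the exposed libraries, against 10.5, 10.5 and 10.6 RPKM in the untreated libraries. Every exposed value was above every untreated one (log2 change 0.50, SE 0.0506). Its locus overlaps Gm20425 on the same strand, so its reads could be shared with that gene. Srpr, the alpha chain that docks the particle, was 39.2 ± 0.774 RPKM in exposed and 32.8 ± 1.29 RPKM in untreated libraries (log2 change 0.25, SE 0.0443). The Srprb to Srpr ratio within a library, which no scaling of libraries can move, was 0.369, 0.395 and 0.408 in the exposed libraries, against 0.328, 0.305 and 0.330 in the untreated libraries. The median log2 change of the 7 genes was 0.26.

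The 3 subunits of the Sec61 channel itself were among the stronger rises. Sec61a1, the pore-forming alpha subunit (chr6:88503601-88518905), had 34.5, 36.5 and 38.0 RPKM in the exposed libraries, against 23.7, 22.7 and 23.4 RPKM in the untreated libraries. The groups were well apart, and the ratio of means was 1.56 (log2 change 0.62, SE 0.0477). Sec61b, the beta subunit (chr4:47474658-47483242), had 45.1, 49.8 and 48.7 RPKM in the exposed libraries, against 26.4, 28.9 and 28.0 RPKM in the untreated libraries, again without overlap (log2 change 0.76, SE 0.0534). Sec61g, the gamma subunit, was 27.2 ± 1.15 RPKM in exposed and 15.9 ± 0.462 RPKM in untreated libraries, a ratio of 1.71. The 3 subunits assemble into 1 channel, and their levels per length kept the order Sec61b, Sec61a1, Sec61g in all 6 libraries.

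The second alpha gene did not follow. Sec61a2, a paralogue of Sec61a1 (chr2:5870987-5895432), had 2.59, 2.39 and 2.03 RPKM in the exposed libraries, against 2.66, 2.75 and 2.74 RPKM in the untreated libraries. It was low in every library, its exposed values all lay below the untreated ones, and the change of -0.16 did not pass (adjusted p = 0.0720). It was called lower without exposed replicate 1 (adjusted p = 0.0223) and with equal-sum scaling (0.0223). The Sec61a1 to Sec61a2 ratio was 13.3, 15.3 and 18.7 in the exposed libraries, against 8.94, 8.23 and 8.56 in the untreated libraries. Sec61a2 overlaps Nudt5 on the opposite strand, and the use of strand in counting is not given in the sources used here.

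The partners of the channel for post-translational import parted from each other. Sec62, which helps to open the channel for such proteins (chr3:30792876-30821263), had 23.6, 22.9 and 16.6 RPKM in the exposed libraries, against 27.4, 25.3 and 27.3 RPKM in the untreated libraries. All exposed values were lower, and replicate 3 lay far below the other exposed libraries (log2 change -0.34, SE 0.115, adjusted p = 0.0257). Without exposed replicate 3 the change was -0.19, and the call remained. That call was lost with no expression filter (adjusted p = 0.0848), after median-of-ratios (0.178) or upper-quartile scaling (0.190), and without untreated replicate 1 (0.0763) or 3 (0.0723). Sec63, the J-domain partner that recruits the chaperone BiP, was 11.8 ± 1.11 RPKM in exposed and 9.61 ± 0.351 RPKM in untreated libraries and rose (log2 change 0.27, SE 0.0665), a call lost with equal-sum scaling (adjusted p = 0.0886). The Sec63 to Sec62 ratio was 0.548, 0.515 and 0.648 in the exposed libraries, against 0.357, 0.364 and 0.359 in the untreated libraries. For the 6 genes of the channel and its partners, 4 rose and 1 fell, and the median log2 change was 0.45.

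**Figure D2:**
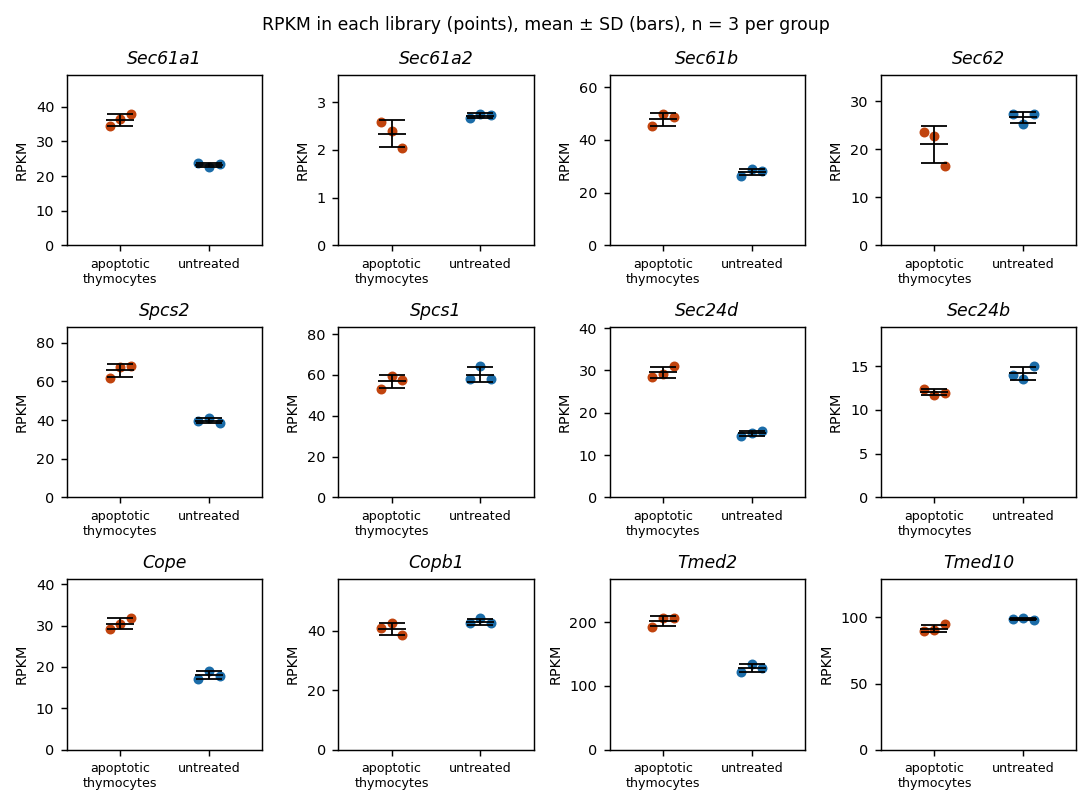
RPKM of 12 members (vertical axes, each from 0) in the exposed and untreated libraries, with points for libraries and bars for mean ± SD, n = 3 per group. In each row, genes that rose stand beside relatives that did not, such as Sec24d beside Sec24b and Tmed2 beside Tmed10.

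Signal peptidase cuts the signal sequence off as the protein enters, and 4 of its 5 genes rose. Spcs2, an accessory subunit (chr7:99837569-99858883), had 62.0, 67.7 and 67.9 RPKM in the exposed libraries, against 39.4, 41.2 and 38.6 RPKM in the untreated libraries. Its exposed values stood well above the untreated ones (log2 change 0.71, SE 0.0503). A pseudogene copy of Spcs2 is named in GENCODE M21, so some of its reads could belong there. Only pseudogenes named after a member were searched for, so copies of other members under other names could have been missed. Spcs1, another small accessory subunit (chr14:30999826-31001672), had 53.3, 59.5 and 57.7 RPKM in the exposed libraries, against 58.0, 64.3 and 57.8 RPKM in the untreated libraries. Its groups overlapped (log2 change -0.077, adjusted p = 0.278), the sign was positive under median-of-ratios scaling (0.091), and it was called lower under equal-sum scaling (-0.19, adjusted p = 0.00533). The Spcs2 to Spcs1 ratio was 1.16, 1.14 and 1.18 in the exposed libraries, against 0.680, 0.641 and 0.667 in the untreated libraries, so the order of the 2 levels differed between the groups.

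The catalytic subunits of the peptidase come from 2 genes that moved alike. Sec11a had 13.2, 14.1 and 14.4 RPKM in the exposed libraries, against 10.6, 10.6 and 10.1 RPKM in the untreated libraries (log2 change 0.38, SE 0.0496). Sec11c, the more abundant of them per length, had 35.3, 34.2 and 32.99 RPKM in the exposed libraries, against 25.5, 27.1 and 24.2 RPKM in the untreated libraries (log2 change 0.40, SE 0.0515). Both rose without overlap, and their ratio within a library averaged 0.407 ± 0.0320 in exposed and 0.408 ± 0.0145 in untreated libraries, with overlapping groups. Spcs3, an essential accessory subunit, was 34.0 ± 1.31 RPKM in exposed and 29.9 ± 0.758 RPKM in untreated libraries and rose less (log2 change 0.18, SE 0.0452). Its call was lost with equal-sum scaling (adjusted p = 0.236).

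All 4 TRAP genes rose, by unequal amounts. Ssr2, the beta subunit (chr3:88579671-88588397), had 47.0, 53.3 and 53.5 RPKM in the exposed libraries, against 31.4, 36.7 and 34.3 RPKM in the untreated libraries, without overlap (log2 change 0.57, SE 0.0697). Ssr1, the alpha subunit, was 22.3 ± 0.121 RPKM in exposed and 16.3 ± 0.520 RPKM in untreated libraries, and Ssr4, the delta subunit, was 33.7 ± 2.03 RPKM in exposed and 26.8 ± 1.35 RPKM in untreated libraries. Ssr3, the gamma subunit, had 61.3, 62.6 and 58.7 RPKM in the exposed libraries, against 52.3, 56.4 and 54.6 RPKM in the untreated libraries, the smallest rise of the 4 (log2 change 0.16, SE 0.0461). The Ssr3 call was lost with equal-sum scaling (adjusted p = 0.340) and without exposed replicate 2 (0.0681), untreated replicate 1 (0.0725) or untreated replicate 3 (0.0515).

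COPII coats form at exit sites of the endoplasmic reticulum, where the GTPase Sar1 recruits the Sec23-Sec24 inner layer and then the Sec13-Sec31 outer layer. Of the 12 genes 10 rose and 1 fell, with a median log2 change of 0.24. Sec24 proteins choose the cargo, and their 4 genes did not move together. Sec24d (chr3:123267496-123365635) had 28.4, 29.2 and 31.0 RPKM in the exposed libraries, against 14.6, 15.2 and 15.8 RPKM in the untreated libraries, the largest change of all 48 members (log2 change 0.92, SE 0.0504, ratio of means 1.94). Sec24c had 31.0, 29.9 and 31.4 RPKM in the exposed libraries, against 25.5, 25.2 and 26.8 RPKM in the untreated libraries and rose less (log2 change 0.24, SE 0.0437). In both genes every exposed value was above every untreated one.

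The other Sec24 pair differed. Sec24a had 3.79, 3.41 and 3.42 RPKM in the exposed libraries, against 3.13, 3.24 and 3.38 RPKM in the untreated libraries, did not overlap, and did not pass (log2 change 0.095, adjusted p = 0.176), although median-of-ratios scaling called it higher (0.23, adjusted p = 0.00714). Sec24b (chr3:129982759-130061553) had 12.4, 11.8 and 11.9 RPKM in the exposed libraries, against 14.001, 13.5 and 15.01 RPKM in the untreated libraries and fell (log2 change -0.22, SE 0.0512), with all exposed values below the untreated ones. Median-of-ratios scaling ended that call (-0.060, adjusted p = 0.356), as did upper-quartile scaling (-0.056, adjusted p = 0.378). The Sec24d to Sec24b ratio, free of such scaling, was 2.28, 2.48 and 2.60 in the exposed libraries, against 1.04, 1.12 and 1.05 in the untreated libraries. Sec24d and Sec24b were thus near parity in untreated libraries, and Sec24d exceeded Sec24b more than 2-fold in each exposed one. Against Sec24c, the ratio was 0.917, 0.975 and 0.989 in the exposed libraries, against 0.571, 0.603 and 0.589 in the untreated libraries.

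The other COPII genes rose, each by less than Sec24d. Sec23b, one of the GTPase-activating inner coat paralogues, had 13.3, 14.1 and 13.9 RPKM in the exposed libraries, against 9.41, 9.86 and 9.98 RPKM in the untreated libraries (log2 change 0.46, SE 0.0467). Sec23a, the less abundant of them per length, had 6.37, 6.09 and 5.93 RPKM in the exposed libraries, against 5.21, 5.49 and 5.20 RPKM in the untreated libraries (log2 change 0.18, SE 0.0503), and its call was lost with equal-sum scaling (adjusted p = 0.205) and without untreated replicate 3 (0.0507). The Sec23b to Sec23a ratio was higher in each exposed library, at 2.25 ± 0.141 in exposed and 1.84 ± 0.0674 in untreated libraries. The outer coat genes were closer to each other. Sec13 was 49.0 ± 3.40 RPKM in exposed and 34.1 ± 1.06 RPKM in untreated libraries (log2 change 0.51, SE 0.0560), Sec31a was 27.6 ± 1.15 RPKM in exposed and 20.5 ± 0.899 RPKM in untreated libraries (log2 change 0.41, SE 0.0503), and their ratio overlapped between groups.

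The Sar1 GTPase genes, whose products start the coat, rose alike. Sar1a had 42.6, 45.7 and 45.7 RPKM in the exposed libraries, against 37.0, 40.9 and 38.0 RPKM in the untreated libraries (log2 change 0.20, SE 0.0520). Sar1b had 37.9, 41.8 and 39.2 RPKM in the exposed libraries, against 32.9, 33.5 and 33.3 RPKM in the untreated libraries (log2 change 0.25, SE 0.0463). Their ratio overlapped between groups, and the Sar1a call was lost with equal-sum scaling (adjusted p = 0.0503). Sar1b and Sec24a lie head to head on chromosome 11 with 52 bases between their annotated starts, and of this pair Sar1b rose while Sec24a did not pass. Sec16a, the scaffold of exit sites, was 15.3 ± 0.168 RPKM in exposed and 12.3 ± 0.389 RPKM in untreated libraries and rose. Sec23ip, a Sec23-binding lipase-like protein of the same sites, was 11.1 ± 0.368 RPKM in exposed and 9.78 ± 0.172 RPKM in untreated libraries and rose, a call lost with equal-sum scaling (adjusted p = 0.278).

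The Sec22 family had the lowest median log2 change of the 8 groups, 0.031. Sec22b, a SNARE that fuses vesicles between the endoplasmic reticulum and the Golgi, had 13.8, 14.5 and 15.1 RPKM in the exposed libraries, against 12.6, 13.2 and 12.4 RPKM in the untreated libraries and rose (log2 change 0.17, SE 0.0498). That call was lost with equal-sum scaling (adjusted p = 0.170) and without exposed replicate 2 (0.0503), untreated replicate 1 (0.0517) or untreated replicate 3 (0.0657). Sec22a, a relative without the SNARE motif, had 2.61, 2.78 and 3.34 RPKM in the exposed libraries, against 3.08, 3.15 and 3.09 RPKM in the untreated libraries, and Sec22c, another such relative, had 3.09, 2.84 and 3.01 RPKM in the exposed libraries, against 2.80, 3.05 and 2.84 RPKM in the untreated libraries. Both overlapped between groups and did not pass (adjusted p = 0.388 and 0.640). Without exposed replicate 3, Sec22a was called lower (log2 change -0.15, adjusted p = 0.0353), and Sec22c was called higher with median-of-ratios scaling (0.16, adjusted p = 0.0340).

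COPI is built from a cage and an adaptor layer that join the membrane as 1 unit, and 5 of its 6 genes found by name rose, with a median log2 change of 0.23. Cope, the epsilon subunit of the cage (chr8:70302518-70312993), had 29.2, 30.4 and 31.8 RPKM in the exposed libraries, against 17.2, 19.1 and 17.9 RPKM in the untreated libraries. The exposed values stood far above the untreated ones, a ratio of 1.69 (log2 change 0.72, SE 0.0531). Its cage partners rose less. Copb2, the beta-prime subunit, had 60.6, 61.9 and 59.2 RPKM in the exposed libraries, against 49.7, 53.0 and 51.2 RPKM in the untreated libraries (log2 change 0.24, SE 0.0426), and Copa, the alpha subunit that reads retrieval signals, was 38.2 ± 0.607 RPKM in exposed and 32.4 ± 0.157 RPKM in untreated libraries (log2 change 0.23, SE 0.0385).

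Among the COPI genes found by name, the adaptor layer held the one that did not pass. Copb1, the beta subunit (chr7:114215559-114254680), had 40.9, 42.5 and 38.6 RPKM in the exposed libraries, against 42.4, 44.1 and 42.4 RPKM in the untreated libraries. Its groups overlapped and the change did not pass (log2 change -0.079, adjusted p = 0.170), with a positive sign under median-of-ratios scaling (0.088) and a call as lower under equal-sum scaling (-0.19, adjusted p = 0.00659). Copz1, the zeta subunit, was 60.8 ± 2.85 RPKM in exposed and 48.7 ± 1.95 RPKM in untreated libraries and rose. Arcn1, the delta subunit, was 30.7 ± 0.986 RPKM in exposed and 27.4 ± 0.572 RPKM in untreated libraries and rose (log2 change 0.16, SE 0.0432), a call lost with equal-sum scaling (adjusted p = 0.364). The gamma subunit Copg1, listed as Copg, was 9.52, 9.49 and 10.1 RPKM in the exposed libraries, against 7.84, 7.73 and 7.35 RPKM in the untreated libraries, and passed as higher (log2 change 0.31). Copg2 and Copz2, paralogues outside the members, were not called higher. Copg2 was called lower (log2 change -0.13, adjusted p = 0.0315), and Copz2 did not pass (log2 change 0.11, adjusted p = 0.120). The Cope to Copb1 ratio was 0.713, 0.716 and 0.823 in the exposed libraries, against 0.405, 0.433 and 0.422 in the untreated libraries, and that of Copb2 to Copb1 was 1.48, 1.46 and 1.54 in the exposed libraries, against 1.17, 1.20 and 1.21 in the untreated libraries.

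Cargo receptors had a median log2 change of 0.53, with 4 of 5 genes higher and 1 lower. This was the highest of the 8 groups as deposited, but with a filter at 5 RPKM the Sec61 channel, without Sec61a2, was higher at 0.62. Lman1, a mannose-binding lectin, and Mcfd2, its calcium-binding partner, form the receptor that carries coagulation factors V and VIII in humans. Mcfd2 (chr17:87254658-87265935) had 93.9, 97.7 and 98.4 RPKM in the exposed libraries, against 52.2, 55.8 and 51.9 RPKM in the untreated libraries, without overlap (log2 change 0.85, SE 0.0450, ratio of means 1.81). Lman1 had 16.2, 16.6 and 15.3 RPKM in the exposed libraries, against 12.1, 11.98 and 11.7 RPKM in the untreated libraries (log2 change 0.40, SE 0.0468). Both rose, and the Mcfd2 to Lman1 ratio was 5.79, 5.87 and 6.43 in the exposed libraries, against 4.33, 4.66 and 4.43 in the untreated libraries, higher in each exposed library.

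Another lectin receptor and the p24 pair completed the group. Lman2, which binds glycoproteins in the early secretory pathway, had 58.6, 62.3 and 65.9 RPKM in the exposed libraries, against 42.1, 41.9 and 44.5 RPKM in the untreated libraries (log2 change 0.53, SE 0.0529). Tmed2, a p24 family protein (chr5:124540695-124550506), was the most abundant member per length in every library, with 193, 206 and 206 RPKM in the exposed libraries, against 122, 134 and 128 RPKM in the untreated libraries (log2 change 0.65, SE 0.0498). Its groups did not overlap. Tmed10, the p24 protein that pairs with it (chr12:85340614-85374717), had 89.8, 90.3 and 94.7 RPKM in the exposed libraries, against 99.0, 99.3 and 97.8 RPKM in the untreated libraries and was called lower at an adjusted p of 0.0444 (log2 change -0.11). The call was lost with no intensity trend (adjusted p = 0.0687) and with same-numbered libraries fitted as blocks (0.0648). It was also lost after median-of-ratios scaling, where the sign turned (0.062), and without any 1 library other than exposed replicate 3 (adjusted p = 0.0790 to 0.150). The same search of names found a pseudogene of Tmed10 in GENCODE M21. The Tmed2 to Tmed10 ratio was 2.15, 2.28 and 2.18 in the exposed libraries, against 1.24, 1.35 and 1.31 in the untreated libraries.

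**Figure D3:**
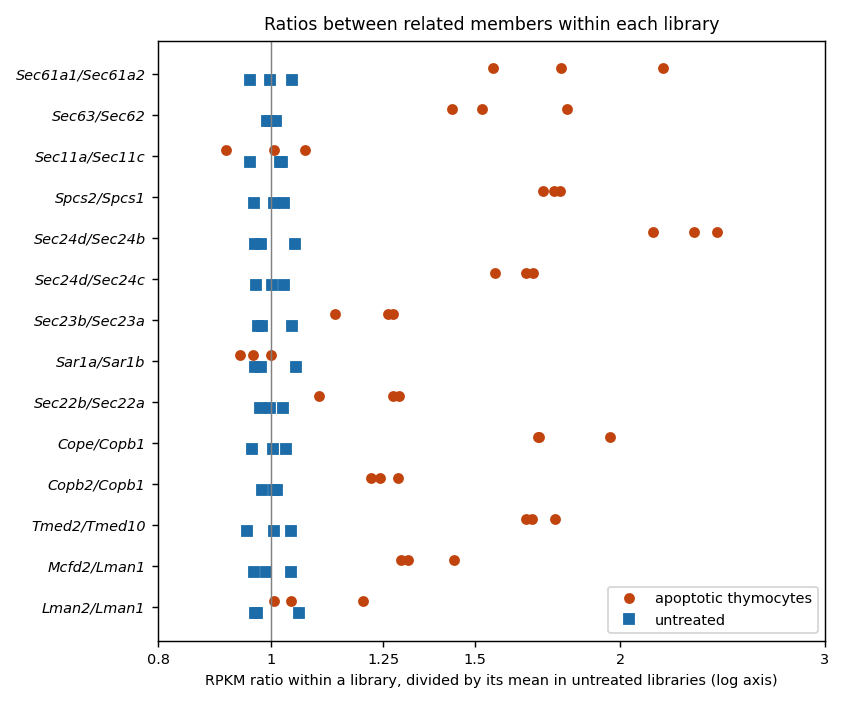
RPKM ratio of related members within each library, divided by the mean of that ratio in the untreated libraries (horizontal log axis), with circles for exposed and squares for untreated libraries, 3 each. Sec24d to Sec24b lies farthest to the right, and Sec11a to Sec11c, Sar1a to Sar1b and Lman2 to Lman1 overlap between groups.

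Ratios within a library can be sorted by whether the exposed and untreated values overlapped, which says little about size. The Sec61b to Sec61a1 ratio averaged 1.32 in exposed and 1.19 in untreated libraries. It missed overlap narrowly, with a lowest exposed value of 1.283 and a highest untreated value of 1.277. The Lman2 to Lman1 ratio overlapped, with means of 3.89 and 3.59. Of the paralogue pairs, Sec11a with Sec11c, Sar1a with Sar1b and Lman1 with Lman2 kept overlapping ratios, as did Sec13 with Sec31a and Srp9 with Srp14 among partners. Among ratios that did not overlap were those of Sec61a1 to Sec61a2, Sec24d to each other Sec24 gene and Sec23b to Sec23a. Those of Sec22b to Sec22a and Tmed2 to Tmed10 did not overlap either. The same held among partners for Sec61b and Sec61g to Sec61a1, Sec61a1 and Sec63 to Sec62, and Spcs2 to Spcs1. It also held for Cope and Copb2 to Copb1, Mcfd2 to Lman1 and Srprb to Srpr. Each ratio that did not overlap was written with the gene of the larger log2 change first. All were therefore higher in exposed libraries by the way they were written, and their shared direction carries no information. All ratios were formed after the values had been seen and were not tested. Several further gene spans overlap a detected gene on the opposite strand, namely Spcs1 with Glt8d1, Sec24d with Mettl14, Copa with Ncstn, and Srpr with Tirap, Foxred1 and Fam118b.

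**Figure D4:**
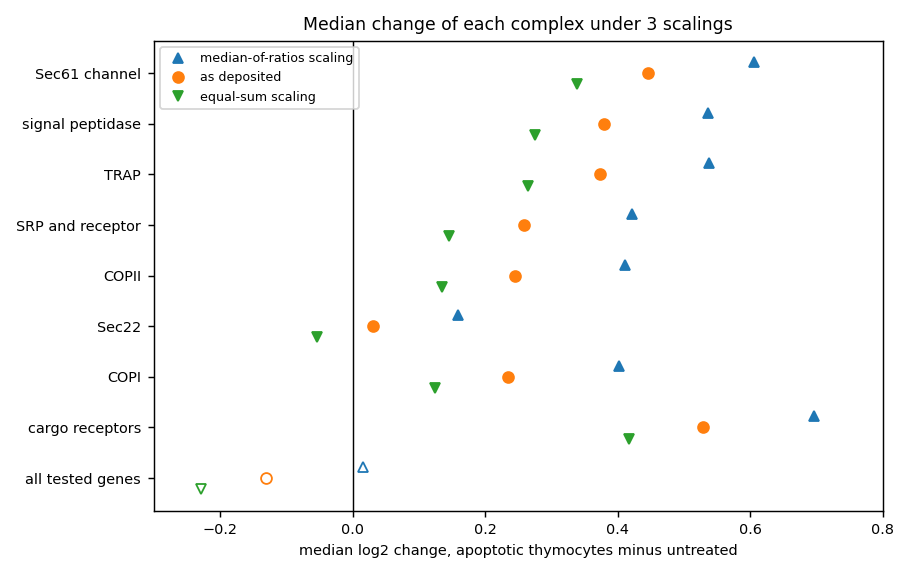
Median log2 change, exposed minus untreated, of the members of each complex (filled symbols) and of all tested genes (open symbols) under the deposited values and 2 rescalings. Each rescaling divides all genes of a library by the same factor, so a nearly unchanged order of the complexes follows from it. The Sec22 family is the one whose median lies below 0 under equal-sum scaling (-0.053).

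Genes that work beside the members were read from 4 further lists. For comparison, 18.8% of all tested genes were called higher and 46.0% lower, with a median log2 change of -0.13. Oligosaccharyltransferase, which adds sugar chains to proteins as they leave the channel, had 11 of 12 genes higher and 1 lower, with a median log2 change of 0.43. Rpn1, a scaffold subunit, was 93.9 ± 6.68 RPKM in exposed and 45.8 ± 2.17 RPKM in untreated libraries (log2 change 1.02), and Ostc was 72.8 ± 5.47 RPKM in exposed and 45.0 ± 1.47 RPKM in untreated libraries (log2 change 0.68). The gene that fell was Tusc3, a subunit with oxidoreductase activity, at 13.4 ± 1.34 RPKM in exposed and 18.6 ± 0.584 RPKM in untreated libraries (log2 change -0.45).

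Of the chaperone and unfolded protein response genes 22 of 27 tested were higher and 5 lower, with a median of 0.67. Pdia6, a protein disulfide isomerase, was 86.4 ± 3.39 RPKM in exposed and 29.0 ± 0.7504 RPKM in untreated libraries (log2 change 1.54), and Sdf2l1, a cofactor of BiP, was 94.1 ± 4.45 RPKM in exposed and 32.2 ± 0.613 RPKM in untreated libraries (log2 change 1.52). Among the 5 that fell were Atf4, a transcription factor of the stress response, at 67.8 ± 1.67 RPKM in exposed and 94.6 ± 3.59 RPKM in untreated libraries, and Atf6, a membrane-bound sensor, at 17.4 ± 0.580 RPKM in exposed and 24.4 ± 0.441 RPKM in untreated libraries. Under median-of-ratios scaling 22 were higher and 2 lower, beside 31.9% and 27.9% of all tested genes.

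The vesicle fusion and return machinery had calls in both directions. Of 26 SNAREs, tethers and Arf cycle genes, 12 were called higher and 5 lower, 9 passed in neither direction, and the median was 0.085. Over all tested genes 18.8% were higher and 46.0% lower, and the median was -0.13. Gorasp2, a Golgi stacking protein, was 29.4 ± 1.69 RPKM in exposed and 18.04 ± 0.675 RPKM in untreated libraries (log2 change 0.68), and Arf1, the GTPase that recruits COPI, was 249 ± 11.3 RPKM in exposed and 182 ± 6.76 RPKM in untreated libraries (log2 change 0.45). Use1, a SNARE of return transport, was 17.5 ± 0.804 RPKM in exposed and 27.4 ± 1.47 RPKM in untreated libraries and fell (log2 change -0.62), as did Bnip1, another of them, at 1.85 ± 0.114 RPKM in exposed and 2.50 ± 0.120 RPKM in untreated libraries (log2 change -0.30). With median-of-ratios scaling 18 of the 26 rose and 2 fell, beside 31.9% and 27.9% of all tested genes. With equal-sum scaling 9 rose and 7 fell, beside 13.5% and 59.8%.

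The last list holds other p24, cargo and COP genes, and also Srp54a, Srp54b, Srp54c, Tram1 and Tram2 of targeting and the translocon. Of its 25 tested genes, 8 were called higher and 7 lower, 10 passed in neither direction, and the median was 0.083. The shares over all tested genes were 18.8% higher and 46.0% lower, with a median of -0.13. Surf4, a cargo receptor for soluble secreted proteins, was 132 ± 7.43 RPKM in exposed and 67.5 ± 1.08 RPKM in untreated libraries (log2 change 0.95), and Tmed9, a p24 protein, was 103 ± 6.51 RPKM in exposed and 71.1 ± 2.51 RPKM in untreated libraries (log2 change 0.52). Cnih4, a cargo adaptor, was 9.36 ± 0.360 RPKM in exposed and 12.5 ± 0.276 RPKM in untreated libraries and fell (log2 change -0.38). Tmed5, another p24 protein, fell as well, at 9.72 ± 1.86 RPKM in exposed and 12.7 ± 0.793 RPKM in untreated libraries (log2 change -0.37). Its exposed libraries had 11.4, 10.1 and 7.69 RPKM, with replicate 3 the lowest, as for Sec62. That library was also the lowest exposed one for Sec63, Hsp90b1, Magt1, Scfd1, Srp54a and Srp54c. It was the highest exposed one for others, such as Calr and Rpn1. The part of this library in the falls of Sec62 and Tmed5 was not tested across genes. Under median-of-ratios scaling 15 of the 25 rose and 2 fell, beside 31.9% and 27.9% of all tested genes. Under equal-sum scaling 6 rose and 9 fell, beside 13.5% and 59.8%. These 4 lists were counted as descriptions and their difference from the members was not tested.

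**Figure D5:**
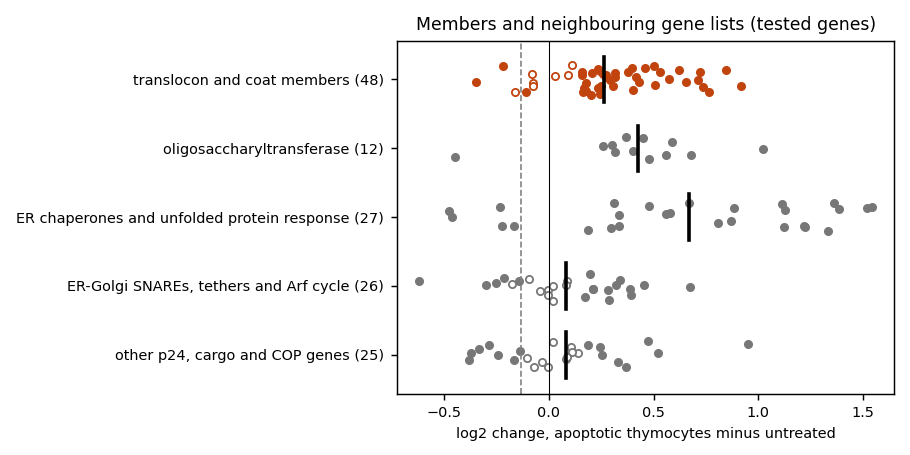
Log2 change, exposed minus untreated, of each tested gene of the members (48, coloured) and of the 4 neighbouring lists (grey), with the number of genes in brackets. Filled points passed the test, bars are medians, and the dashed line is the median tested gene at -0.13. The chaperone list reaches farthest to the right, with a median of 0.67 beside 0.26 for the members.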

How the data were processed

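The authors deposited RPKM values, per the file headers, 1 column per library, for 38124 genes, with 0 columns of no sample. The submitters' processing notes name GRCm38 and mm10. Libraries were made from poly(A) RNA with a stranded kit, per the labels' protocols. The aligner, the counting program and its use of strand are not given in the sources used here. Coordinates are the table's, on mm10. The value of 1 read on 1 kb, 0.0386 to 0.0518 RPKM, and the depth came from GENCODE M21 exon lengths. All 6 read numbers of a gene were whole within 0.01 reads for 9685 of 18737 detected genes (51.7%). For members, 21 used that length and the others a length searched up to 30000 bp.

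The filter asked for 1 RPKM in no fewer than 3 libraries. On log2(RPKM + 1), limma (version 3.58.1, under R 4.3.3) estimated the group difference for all tested genes together, its moderated variance following intensity. Benjamini-Hochberg adjusted p under 0.05 over all tested genes was a call. The fit was also run on simulated reads in which few genes were changed, a setting that does not test the choice of scaling. Log2 changes are exposed minus untreated on that scale, which understates changes of low genes. Folds are ratios of mean RPKM. Counting and ratios used pandas 2.3.3 and numpy 2.4.6 (Python 3.11.15). Exact strings were searched on both strands of the RefSeq promoters, and the string shown in full was chosen after the shares had been seen.

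Members and lists were chosen with earlier results of these data known. Values per library are given for paralogue groups, for Copb1 and Copb2, and for the largest rise, largest fall and smallest change of each complex. From each neighbouring list up to 2 largest rises and 2 largest falls among called genes are named. Other members are given as group means. Alternatives were another pseudocount (0.1), no filter, a filter at 5 RPKM, median-of-ratios and upper-quartile scaling, no trend, a replicate block and each library left out. Equal-sum scaling was added after seeing the data. Within groups r across tested genes was 0.994 to 0.998, and members differed between replicates by more than counting error (chi-square per member 1.43 to 11.4), so no library was treated as a duplicate. The highest chi-square was between exposed replicates 1 and 3.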

Additional observations from a re-analysis of the deposited data

How the results depend on the processing

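Of the 38 members called higher, 30 were called higher under all 14 alternatives, and 35 when equal-sum scaling is left aside. The count of members higher was 35 to 39 with 1 library left out, and that of members lower was 1 to 4. Over all tested genes, 3234 were higher and 2832 lower with median-of-ratios scaling, 3280 and 2814 with upper-quartile scaling, and 1915 and 4679 as deposited. Members lower numbered 0 with either of these scalings and 6 with equal-sum scaling. Under median-of-ratios and upper-quartile scaling, 0 genes of the Sec61 channel, COPII or cargo receptors were lower and 2 of the Sec22 family were higher. With equal-sum scaling 2 of the Sec61 channel, 1 of signal peptidase and 1 of COPI were lower and 0 of Sec22 were higher. No filter left 0 of the Sec61 channel lower, and no trend left 0 of the cargo receptors lower.

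Median log2 changes by complex moved with the scaling. With median-of-ratios scaling they were 0.61 for the Sec61 channel, 0.54 for signal peptidase, 0.54 for TRAP, 0.42 for the signal recognition particle and receptor, 0.41 for COPII, 0.16 for Sec22, 0.40 for COPI and 0.70 for cargo receptors. Upper-quartile scaling gave 0.61, 0.54, 0.54, 0.42, 0.41, 0.16, 0.40 and 0.70 in that order. Equal-sum scaling gave 0.34, 0.27, 0.27, 0.15, 0.14, -0.053, 0.12 and 0.42. Leaving out genes under 5 RPKM gave 0.62 for the Sec61 channel, above the cargo receptors, and 0.17 for Sec22. These scalings divide all genes of a library by 1 number, which is what moves the values. Signs turned for Copb1 (0.088 and 0.091), Sec22a (0.053 and 0.056), Spcs1 (0.091 and 0.095) and Tmed10 (0.062 and 0.066) with median-of-ratios and upper-quartile scaling, and for Sec22c (-0.053) with equal-sum scaling.

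With 1 library left out, the genes called lower numbered 0 to 2 in the Sec61 channel, 0 to 1 in the cargo receptors and 0 to 1 in Sec22, and those higher in Sec22 numbered 0 to 1. The labels do not say whether same-numbered libraries of the groups share a culture or a day. Their deviations correlated at 0.197, -0.0310 and -0.162, which does not settle it. With the replicate block 38 members were higher and 2 lower, 0 of the cargo receptors lower, and Tmed10 was the member that lost its call (adjusted p = 0.0648). Depth limits the low members most, such as Sec61a2, with 182 reads in exposed replicate 3.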
